A study of Mus musculus with 4 samples.

Results

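LSK cells and CD45-negative cells of healthy mouse bone marrow were compared at day 0, with 1 Agilent 1-colour array for each population. These are 2 of the 4 arrays of the series. The LSK array holds the gate named for 3 features (no mature lineage markers, with Sca-1 and with c-kit), labelled as haematopoietic stem cells, and the other array holds cells that the labels describe as stromal or niche cells lacking CD45. Both came from marrow of C57BL6/J mice aged 7 weeks used as healthy controls; the number of mice pooled, their sex and the CD45 form the antibody recognised at day 0 are not stated. The other 2 arrays hold the same populations at day 10 from CD45.1 recipients that had received 700 cGy and 30000 LSK cells of CD45.2 donors, and the labels give the stromal sort there as CD45.1-negative, a gate that CD45.2 donor blood cells also meet. The series asks which genes mark the niche cells while stem cells proliferate, and day 0 is its resting reference. A gene was taken as measured where its brightest probe was well above background on both day 0 arrays, which held for 14552 of 29353 named genes. With 1 array a side there is no replicate, no standard error and no test, and every value below is a difference between 2 arrays.

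Blood stem and progenitor cells lie in the LSK gate because they carry the receptor tyrosine kinase c-kit and Sca-1, encoded by Kit and Ly6a, and lack the surface proteins of mature blood lineages. CD45, encoded by Ptprc, is a tyrosine phosphatase on all nucleated blood cells outside the late red cell series. A gate on its absence therefore admits reticular, bone-forming, fat and vessel cells, and also erythroblasts, which lose CD45 as they mature. Marrow niche cells hold stem cells in place mainly through the chemokine CXCL12 and the c-kit ligand, and erythroblasts make haemoglobin by joining globin chains to haem, then condense and expel the nucleus.

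Levels are log2 processed signals minus the 75th percentile of the same array, and differences are LSK minus CD45-negative on the log2 scale. A difference of at least 1, that is 2-fold, is counted; this is a size and not a test. The LSK array had 54.5% and the CD45-negative array 47.6% of 61307 probes well above background, and 16980 and 15261 genes were detected. Repeat spots of a probe had a median SD of 0.088 on the LSK array and 0.106 on the CD45-negative array, which covers spotting and scanning only. For a gene seen in 1 population, with all its probes dim in the other, an "at least" fold is given. It sets the level against the dimmest signal that counts as detected in the other population, -3.95 in LSK and -3.15 in CD45-negative cells, or the gene's own signal where that is higher. In sorted bulk RNA, fewer cells of a type and less RNA per cell cannot be told apart.

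Of the 14552 measured genes, 5743 (39.5%) differed at least 2-fold. LSK cells were higher for 3172 genes (21.8%) and lower for 2571 (17.7%). The median difference was 0.08, with quartiles of -0.67 and 0.87; its nearness to 0 follows from the scaling of each array to its own 75th percentile, and it is 1.59 on the spike-in scale. The lower side had the longer tail: 218 genes were at least 16-fold lower in LSK cells and 32 were at least 16-fold higher. A further 2387 genes were detected in LSK cells only and 695 in CD45-negative cells only; 699 and 623 of these had a lower bound of at least 2-fold. These counts are relative to the 75th percentile of each array. Scaling to the E1A spike-in controls adds 1.51 to every difference, which gives 10287 genes higher and 685 lower in place of 3172 and 2571. A scaling to 10 housekeeping genes moves the median of all genes to -0.05. These genes include Gapdh (1.31), Pgk1 (1.65) and B2m (-1.26), which themselves differed at least 2-fold and not in the same direction. A list whose median lies between -1.51 and 0 therefore turns positive on the spike-in scale, and this is given with each such list; single genes in that range turn as well.

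**Figure D1:**
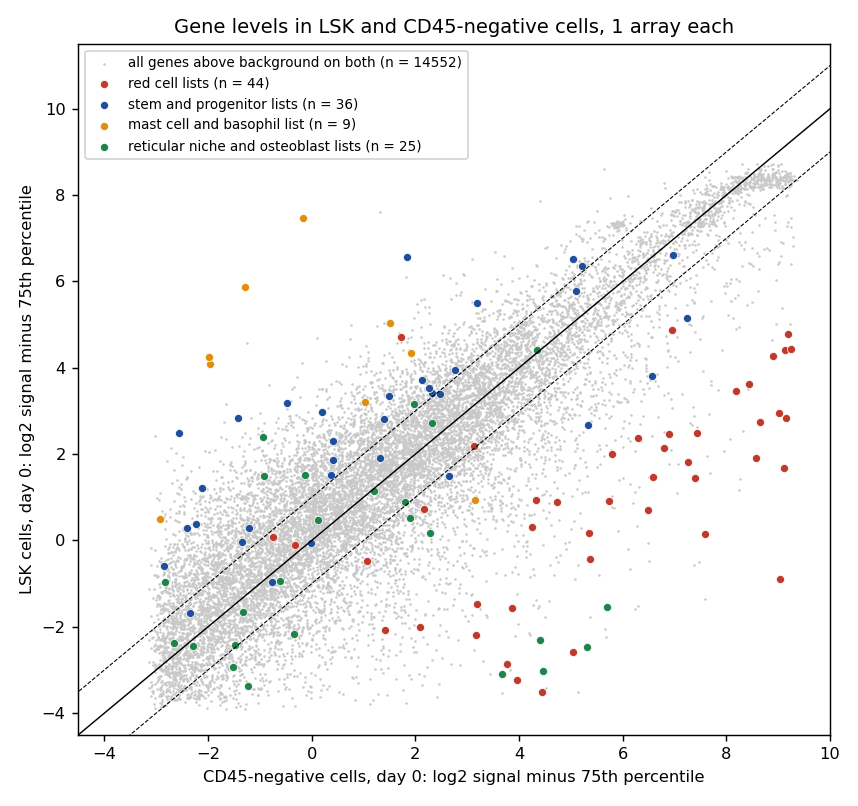
Level of each gene in LSK cells (vertical axis) against CD45-negative cells (horizontal axis), both as log2 signal minus the 75th percentile of the array; each point is 1 gene on 1 array per population, the solid line is equality and the dashed lines are 2-fold. The red cell lists lie below the lines with a few exceptions such as Alas1, and Prss34 and Mcpt8 of the mast cell and basophil list lie highest above them.

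The genes that define the 2 sorts were read first. Kit had a level of 5.04 in LSK cells and 1.52 in CD45-negative cells, a difference of 3.52, and its other 2 probes gave 3.55 and 4.14. Ly6a, which encodes Sca-1, had levels of 2.98 and 0.20. Cd34, a sialomucin of stem and progenitor cells, had levels of 6.57 and 1.83. These 3 genes were higher in the LSK sort, and Kit and Ly6a define its gate. Flt3, a receptor of multipotent progenitors, was detected in LSK cells only and was at least 7.38-fold higher, and Procr, which marks long-lived stem cells, was at least 9.85-fold higher. Slamf1 had no probe above background in CD45-negative cells and a single one of its 2 probes in LSK cells.

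Ptprc was well above background in the CD45-negative sort, with a level of 3.10 against 4.18 in LSK cells. Its difference was 1.08, and its 3 probes gave 0.59, 1.36 and 1.08. All 20 of 20 pan-leukocyte genes were above background on both arrays, and their summed linear signal was 661 in LSK and 234 in CD45-negative cells, in units of the 75th percentile. LSK cells were at least 2-fold higher for 14 of them and none was lower, with a median of 1.26. The largest differences were those of Laptm5, a lysosomal membrane protein of blood cells (2.45), Coro1a, an actin regulator (2.26), Spn, the sialomucin CD43 (2.23), Fyb (2.13), Selplg, the P-selectin ligand (2.09), and Lcp1 (2.06). The CD45-negative array therefore carried transcripts of pan-leukocyte genes at a lower but measurable level. Which cells they came from was not tested.

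Stromal markers in the CD45-negative sort were uneven. Cxcl12 had a level of 4.40 there and -2.30 in LSK cells, a difference of -6.71, and Col1a1, the main collagen chain of bone, had 5.32 and -2.47. Lepr, the receptor that marks reticular niche cells, was detected in CD45-negative cells only and was at least 2.43-fold higher. Kitl, the c-kit ligand, was not well above background on either array. Vcam1, an adhesion molecule of stromal cells and macrophages, had near equal levels of 1.16 and 1.19. The vessel genes Pecam1 and Cdh5 were higher in LSK cells, with levels of 0.97 against -1.37 and of -1.98 against -2.94. Red cell genes were bright in the same sort: Epb42, a membrane skeleton protein of red cells, was detected in CD45-negative cells only and was at least 359-fold higher, and Tfrc, the transferrin receptor, had levels of 6.14 and 1.31. The part that leukocyte and red cell RNA have in the other differences between the sorts was not tested.

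Differences were ranked among genes with no saturated probe on either array. Those in favour of LSK cells were led by genes of basophils, mast cells and antibody-secreting cells. Prss34, a basophil and mast cell protease, had a level of 7.47 in LSK cells and -0.17 in CD45-negative cells (199-fold). Mcpt8, the basophil protease that marks that lineage, had levels of 5.87 and -1.28 (142-fold). Jchain, which joins antibody subunits, had levels of 7.60 and 1.33 (77.3-fold), with a second probe at a difference of 5.70. Transcription factors of stem cells followed. Gata2, needed for stem cell upkeep and for mast cells, had levels of 4.24 and -1.98 (74.8-fold), and its second probe differed by 5.90. Hoxa9, a homeobox factor of self-renewal, had levels of 2.49 and -2.56 (33.1-fold).

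The rest of the 15 largest were Cpa3, the mast cell carboxypeptidase (difference 6.04), Prg2, the eosinophil major basic protein (5.83), Slc16a11, a monocarboxylate transporter relative (5.44), Krt18, a keratin (4.80), Cd34 (4.74), Pglyrp2, a peptidoglycan amidase (4.65), Adgrl4, an adhesion receptor (4.60), Padi2, a protein deiminase (4.44), Plppr3 (4.43) and Galnt6, a glycosyltransferase (4.42). Among genes detected in LSK cells only, the largest lower bounds were those of Hlf, a stem cell transcription factor (at least 55.5-fold), Il2rb, the interleukin-2 receptor beta chain (42.9), Cebpa, the myeloid factor C/EBP alpha (32.2), Vat1 (31.6) and Slc7a8, an amino acid transporter (25.7).

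In the same ranking, the largest differences in favour of CD45-negative cells included many genes of red cells, with bone matrix genes among them. Alas2 and Slc4a1, which are saturated in CD45-negative cells and so not ranked, were at least 983-fold and 173-fold higher there. Cd36, a fatty acid and thrombospondin receptor found on erythroid progenitors, adipocytes and vessel cells, had levels of -3.51 and 5.14 (403-fold). Rsad2, the antiviral enzyme viperin, had levels of -0.50 and 7.48 (253-fold), and a second probe differed by -7.22; the third was not well above background in LSK cells. Rhag, the Rh-associated glycoprotein of the red cell membrane, had levels of -3.51 and 4.45 (249-fold).

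Further down this side came Tmcc2 (difference -7.92), Nxpe2 (-7.92), Fhdc1 (-7.81), Fn3k, a kinase that repairs glycated protein (-7.81), Col1a1 (-7.78), Btnl10 (-7.70), Apol8 (-7.68), Dmtn, the red cell skeleton protein dematin (-7.61), Bglap, osteocalcin (-7.50), Kel, the Kell antigen (-7.44), and Col1a2 (-7.23). Large lower bounds were those of Apol11b (at least 623-fold), Apol10b (518), Ccdc92b (480) and Cyp4b1 (455). The genes of both groups measured on both arrays were also at least 2-fold the same way after normexp background correction, quantile and cyclic loess normalization and averaging of probes, by the rule that chose them. The size of the folds depends on the background correction. Normexp made all of these differences smaller except that of Cd34 (4.92): that of Rhag became -5.60, that of Cd36 -6.21 and that of Hoxa9 3.16.

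**Figure D2:**
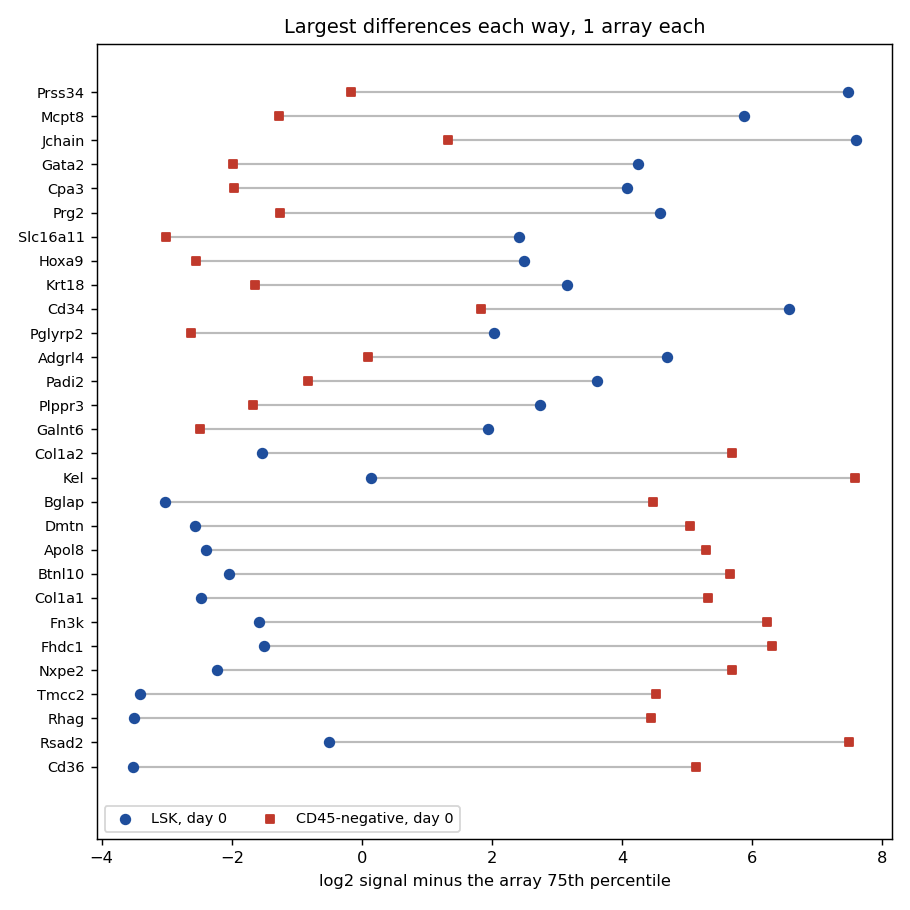
Level in LSK cells (circles) and CD45-negative cells (squares) for the 15 largest differences in favour of LSK cells and 14 of the 15 largest in favour of CD45-negative cells, among genes with no saturated probe; the horizontal axis is log2 signal minus the 75th percentile of the array, and each symbol is 1 array. The lower 14 genes run from Col1a2 at -7.23 to Cd36 at -8.65, and the upper 15 from Galnt6 at 4.42 to Prss34 at 7.64.

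In the gene lists described next, up to 6 members with the largest difference or bound are named, and further members, such as those that go against their list, are named after their values were seen. Stem and progenitor transcription factors were mostly higher in LSK cells: of 26 on the array, 20 were measured, 13 of these were at least 2-fold higher and 3 lower, with a median of 1.25. The remaining 6 were detected in LSK cells only. Behind Gata2, Hlf and Hoxa9 came Mycn (at least 16.7-fold) and Meis1, a partner of Hoxa9 (at least 12.3-fold). The 3 lower members were Tal1 (-2.75), Gfi1b (-2.66) and Lmo2 (-1.15), each of which also serves red cell development.

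Of 25 stem and progenitor surface receptors, 16 were measured, 12 were at least 2-fold higher in LSK cells and 1 was lower, with a median of 1.48; another 5 were detected in LSK cells only. The 12 include Kit and Ly6a, whose direction follows from the gate. Cd34 and Thy1, with levels of 3.18 and -0.47 (3.65), were also among the 12. Cd27 was at least 11.2-fold and Angpt1, the ligand of Tie2, at least 9.78-fold higher. The lower member was Cd47, the signal that protects cells from phagocytosis (-2.10). Fgd5, Tek and Il12rb2 were not well above background on either array.

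Of 39 Hox cluster genes, 27 were not well above background on either array. Of the 7 measured, 3 were at least 2-fold higher in LSK cells, namely Hoxa9 (5.05), Hoxa7 (2.57) and Hoxa5 (1.54), and Hoxc4 was lower (-1.22). The median of 0.91 became -0.08 after normexp background correction. Hoxb4, a factor used to expand stem cells, was detected in LSK cells only (at least 1.86-fold), as were Hoxa4 (1.23), Hoxb2 (1.04), Hoxb6 (1.06) and Hoxa10, for which no fold is given.

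Genes of several mature blood lineages were also higher in the LSK sort. Of 18 mast cell and basophil genes, 9 were measured, 8 of these were at least 2-fold higher and 1 lower, and the median of 3.52 was the highest of the 45 lists. This list holds Kit, which the LSK gate selects, and the median is the value of Kit itself. Gata2 is counted in the stem cell list as well. The summed linear signal of the list was 344 in LSK cells and 20.1 in CD45-negative cells. Besides Prss34, Mcpt8, Gata2 and Cpa3, Fcer1a, the alpha chain of the IgE receptor, was at least 18.7-fold higher and Cd200r3, a basophil receptor, at least 11.6-fold higher. Il1rl1, the interleukin-33 receptor, went the other way (-2.20), and the protease gene Cma1 was detected in CD45-negative cells only (at least 2.87-fold). The tryptase gene Tpsab1 and the serotonin transporter gene Slc6a4 were not well above background on either array.

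T and NK cell genes were higher in LSK cells by a median of 2.02: of 30 genes, 15 were measured, 10 of these were at least 2-fold higher and 1 lower, and 12 more were detected in LSK cells only. Il2rb was at least 42.9-fold higher, Tbx21, the T-bet factor, at least 16.1-fold and Klrd1, the NK receptor CD94, at least 16-fold. Nkg7, a cytotoxic granule protein, had levels of 6.10 and 1.81 (4.28), Cd3d of the T cell receptor complex had 0.98 and -2.98 (3.96), and the chemokine Ccl5 had 3.51 and -0.38 (3.89). Cd8b1 was lower (-2.54), and Cd4, Klrk1 and Trat1 were not well above background on either array. The summed signal of the list was 129 in LSK cells and 19.3 in CD45-negative cells.

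Of 14 plasma cell genes, 10 were measured with a median of 1.26, 6 at least 2-fold higher in LSK cells and 2 lower, and 4 were detected in LSK cells only. Next to Jchain, Derl3, a factor of endoplasmic reticulum quality control, had levels of 2.36 and -1.18 (3.55), and Sdc1, which is CD138, had 0.17 and -2.27 (2.43). Fkbp11 was at least 11.4-fold and Tnfrsf17, the survival receptor BCMA, at least 6.81-fold higher. Irf4 (-1.86) and Ell2 (-1.70) were lower. The summed signal was 233 in LSK cells and 34.1 in CD45-negative cells. The part of basophil, T, NK and plasma cell RNA in the LSK differences was not tested.

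Of 20 dendritic cell and MHC class II genes, 14 were measured, 11 were at least 2-fold higher in LSK cells and none was lower, with a median of 1.19. Itgax, which is CD11c, had levels of 2.53 and -0.96 (3.49), Ccr9 had 0.91 and -2.44 (3.35) and Bst2 had 5.27 and 2.26 (3.01). Clec9a was at least 10.8-fold and Siglech, a plasmacytoid dendritic cell lectin, at least 8.17-fold higher. Zbtb46 alone was detected in CD45-negative cells only (at least 16.7-fold).

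Of 22 monocyte and macrophage genes, 15 were measured, 5 were at least 2-fold higher in LSK cells and 2 lower, with a median of 0.65. The higher ones were Mpeg1, a pore-forming protein (2.17), Ly6c2 (2.04), Csf1r, the M-CSF receptor (1.92), Ccr2 (1.68) and Cx3cr1 (1.29). The lower ones were Lyz2, lysozyme (-1.78), and C1qb (-1.49), which was above 0 on the spike-in scale.

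Neutrophil genes split by the stage at which their granules form. Genes of primary granules, made at the promyelocyte stage, were higher in LSK cells: Elane, neutrophil elastase, had levels of 6.15 and 2.54 (3.61), Prtn3, proteinase 3, had 4.25 and 0.72 (3.52), and Ctsg, cathepsin G, had 7.87 and 4.41 (3.46). Genes of later granules were higher in CD45-negative cells: Retnlg had levels of 1.12 and 5.33 (-4.21), and Mmp8, collagenase of secondary granules, had -0.65 and 2.92 (-3.57). Stfa3, a stefin of mature neutrophils, was at least 31.7-fold higher in CD45-negative cells. Over the list of 22 genes on the array, 20 were measured, 7 higher and 11 lower, and the median of -1.49 became 0.01 on the spike-in scale. The split was seen after the values were known and is given as a description.

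B cell genes were on balance lower in LSK cells, with 1 of 17 measured genes at least 2-fold higher and 9 lower and a median of -1.19 that became 0.32 on the spike-in scale. Dntt, the terminal transferase of early lymphoid progenitors, was the higher one, with levels of 7.53 and 6.02. Cd24a, which erythroblasts also carry, had levels of 5.39 and 9.06 (-3.68), Ms4a1, which is CD20, had -2.07 and 0.92 (-2.99), and Rag1, the recombinase, had 0.77 and 3.46 (-2.69). Fcmr followed at -2.95, Cd22 at -1.75 and Bank1 at -1.36. Several B cell precursor genes stayed within 2-fold, Vpreb1 with levels of 7.36 and 7.16 and Blnk with 6.09 and 6.24.

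**Figure D3:**
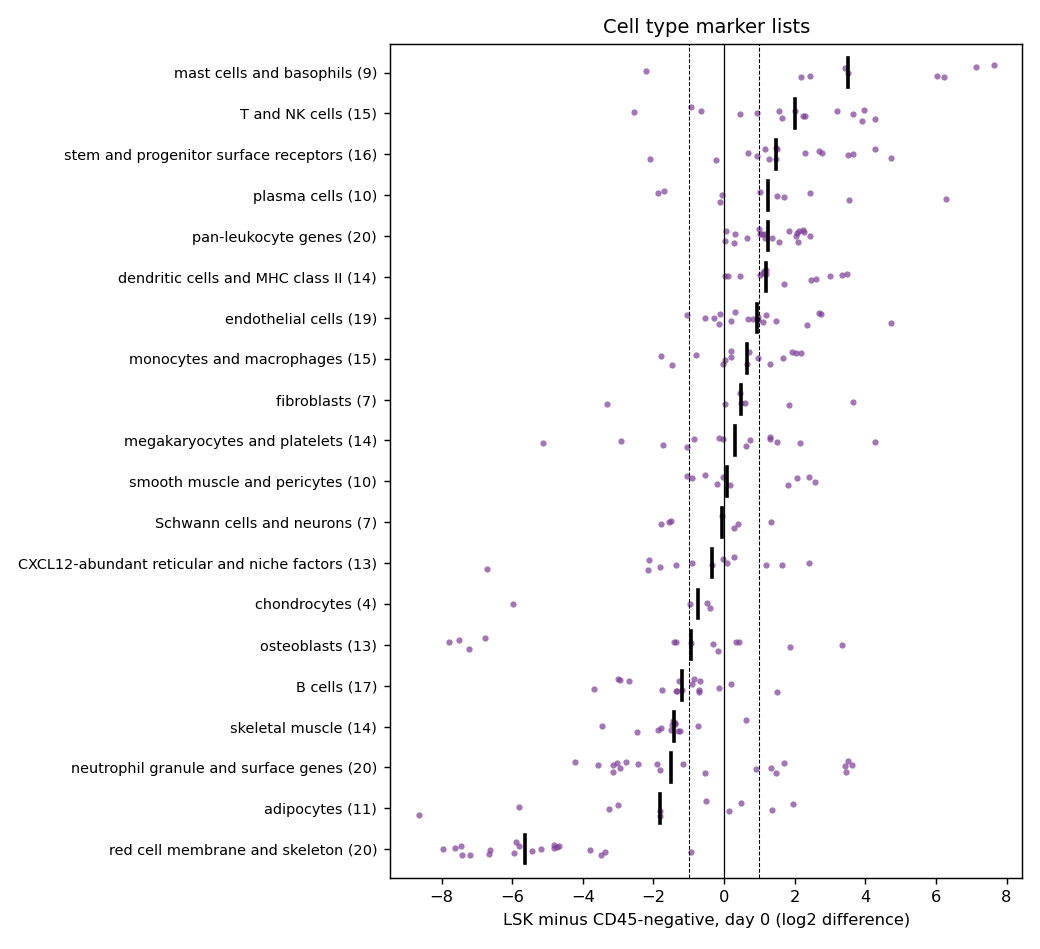
Difference of each measured member of the cell type marker lists, LSK minus CD45-negative at day 0 on the log2 scale; each point is 1 gene, the thick bar is the median of the list, the number in brackets is the number of genes, and the dashed lines mark 2-fold. Medians run from -5.62 for red cell membrane and skeleton genes to 3.52 for mast cell and basophil genes, the latter being the value of Kit, which the LSK gate selects.

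Red cell genes formed the largest block of differences. Of 8 globin and haemoglobin chaperone genes on the array, 4 were measured and all 4 were lower in LSK cells, with a median of -5.23; the other 4 were detected in CD45-negative cells only. Hba-a1, an adult alpha globin, had levels of 2.83 and 9.15, and Hbb-bt, an adult beta globin, had 4.79 and 9.19. Eraf, the chaperone of free alpha globin, had 2.96 and 9.01. These 3 probes were saturated in CD45-negative cells, so the folds are lower bounds, of at least 79.6-fold, 21.1-fold and 66.4-fold. Hbq1b, a theta-type globin, was at least 171-fold higher and Hbq1a at least 67.8-fold higher, but these 2 copies are near-identical, as are the adult globin copies, and their probes may not tell them apart. Hbb-y, the embryonic chain, had levels of -2.0 and 2.09.

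Haem synthesis begins with aminolevulinate synthase in the mitochondrion. All 20 genes of haem synthesis and mitochondrial transport were measured, of which 17 were at least 2-fold lower in LSK cells and 1 was higher, with a median of -4.52. Alas2, the red cell form of the first enzyme, had a level of -0.90 in LSK cells and a saturated 9.04 in CD45-negative cells, at least 983-fold. Alas1, the form used by other cells, went the other way with levels of 4.72 and 1.73 (2.99). Fech, which inserts the iron, had levels of 0.71 and 6.49 (-5.78), Uros had -2.19 and 3.17 (-5.36) and Cpox had 2.50 and 7.43 (-4.93). The mitochondrial transporter Abcb10 differed by -5.43, and Blvrb, biliverdin reductase B, by -5.11. Flvcr1, the haem exporter (0.83), and Hmox1, the haem-degrading enzyme (0.20), stayed within 2-fold.

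Of 24 genes of the red cell membrane and skeleton, 20 were measured, 19 were at least 2-fold lower in LSK cells and none was higher, with a median of -5.62; Slc29a1, a nucleoside carrier, was the exception within 2-fold (-0.94). The summed signal of the list was 59.9 in LSK cells and 2911 in CD45-negative cells. The other 4 genes were detected in CD45-negative cells only, among them Epb42 (at least 359-fold) and Tmod1, tropomodulin (at least 111-fold). Sptb, beta spectrin, had levels of -3.23 and 3.97 (-7.20). Slc4a1, the band 3 anion exchanger, had 1.68 and a saturated 9.11 (at least 173-fold).

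Regulators of red cell development differed less and in both directions. Of 24 genes of erythroid transcription and erythropoietin signalling, 22 were measured, 15 were at least 2-fold lower in LSK cells and 4 higher, with a median of -2.45. Sox6 had levels of -1.40 and 4.58 (-5.98), Klf1, the master factor of globin switching, had -0.58 and 4.59 (-5.17), and Epor, the erythropoietin receptor, had 1.78 and 6.89 (-5.11). Bcl2l1, which encodes the survival protein BCL-XL, had 1.09 and 4.86 (-3.76). Trim10 was at least 452-fold and Trim58, a ubiquitin ligase of maturing red cells, at least 32.2-fold higher in CD45-negative cells. The 4 higher genes in LSK cells were Stat5a (1.93), Bcl11a, the repressor of fetal globin (1.51), Cbfa2t3 (1.23) and Stat5b (1.21). Gata1 had levels of -0.29 and 2.94, opposite in direction to Gata2.

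GATA factors bind a short word in the control regions of red cell genes. The 6 upstream stretches below are shown because their genes were all lower in LSK cells and hold that word. Tmcc2 comes from the 15 largest differences and the others from the lists above. The words AGATAA and AGATAG and also TGATAA and TGATAG were searched on both strands in the 250 bases before each annotated start, overlaps counted separately. RefSeq promoter windows (GRCm38.p6) matched 33 of the 48 genes of the globin, haem and membrane lists that were at least 2-fold lower in LSK cells, and 15 of their 38 windows (39.5%) held a word. Of the 17 such genes of the erythroid transcription list, 14 were matched, and 8 of their 23 windows (34.8%) held a word. For the 15 largest differences on that side, 7 of 15 windows (46.7%) of 11 matched genes did, and for the 15 largest in favour of LSK cells 5 of 16 windows (31.2%) of 14 matched genes did. The share was 26.5% of all 32851 windows, 17.6% of 11275 windows of the measured genes, and 5 of 33 windows (15.2%) of the stem and progenitor genes that were at least 2-fold higher in LSK cells. Some genes have several overlapping windows. A match is a description of the letters and not a binding site. The stretches run 5′ to 3′ on the strand of the gene and end at the base before the start, with the words in capitals:
Alas2, chrX:150547167-150547416, plus strand: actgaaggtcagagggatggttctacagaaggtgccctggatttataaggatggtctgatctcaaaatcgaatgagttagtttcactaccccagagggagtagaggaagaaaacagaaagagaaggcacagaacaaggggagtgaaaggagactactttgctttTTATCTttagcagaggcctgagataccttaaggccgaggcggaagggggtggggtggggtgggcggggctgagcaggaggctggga
Klf1, chr8:84901732-84901981, plus strand: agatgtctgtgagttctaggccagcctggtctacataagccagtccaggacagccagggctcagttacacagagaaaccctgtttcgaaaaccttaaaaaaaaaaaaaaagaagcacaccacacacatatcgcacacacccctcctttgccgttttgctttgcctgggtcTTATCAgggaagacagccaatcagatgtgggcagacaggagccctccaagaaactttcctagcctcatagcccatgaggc
Epor, chr9:21963577-21963826, minus strand: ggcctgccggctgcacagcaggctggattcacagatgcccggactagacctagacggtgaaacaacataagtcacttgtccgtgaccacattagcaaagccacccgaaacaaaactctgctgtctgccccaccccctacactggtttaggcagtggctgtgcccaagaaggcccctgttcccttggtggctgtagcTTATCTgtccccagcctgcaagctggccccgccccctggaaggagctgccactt
Rhag, chr17:40810899-40811148, plus strand: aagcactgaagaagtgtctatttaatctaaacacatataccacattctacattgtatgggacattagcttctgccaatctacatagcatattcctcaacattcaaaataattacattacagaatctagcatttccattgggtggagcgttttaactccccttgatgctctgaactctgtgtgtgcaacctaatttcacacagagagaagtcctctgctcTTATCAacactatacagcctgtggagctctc
Kel, chr6:41704326-41704575, minus strand: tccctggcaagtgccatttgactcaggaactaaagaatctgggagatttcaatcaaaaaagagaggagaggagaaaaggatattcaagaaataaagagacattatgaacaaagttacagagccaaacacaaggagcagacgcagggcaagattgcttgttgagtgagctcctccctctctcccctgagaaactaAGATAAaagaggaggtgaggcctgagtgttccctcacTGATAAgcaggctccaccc
Tmcc2, chr1:132367949-132368198, minus strand: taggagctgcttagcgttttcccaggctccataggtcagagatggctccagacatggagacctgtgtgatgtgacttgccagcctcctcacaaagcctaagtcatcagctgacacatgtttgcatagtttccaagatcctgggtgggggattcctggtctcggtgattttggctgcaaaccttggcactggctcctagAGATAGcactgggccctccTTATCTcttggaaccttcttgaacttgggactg

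Kel and Tmcc2 held 2 words each, and the word nearest the start began 19 bases upstream in Kel and 33 bases upstream in Tmcc2. Alas2, Klf1, Epor and Rhag held 1 word each. The day 0 level of Alas2 was at least 983-fold higher in CD45-negative cells, its probe being saturated there, and the differences of the others were -5.17 for Klf1, -5.11 for Epor, -7.96 for Rhag, -7.44 for Kel and -7.92 for Tmcc2.

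Genes of iron handling followed the red cell genes in part. Of 16 on the array, 13 were measured, 8 were at least 2-fold lower in LSK cells and 2 higher, and the median of -1.03 became 0.48 on the spike-in scale. Tfrc differed most (-4.83), followed by Slc11a2, the endosomal iron carrier DMT1, with levels of 0.28 and 3.54 (-3.26). Ncoa4, which delivers ferritin for breakdown, differed by -2.75 and Slc40a1, the iron exporter ferroportin, by -2.71. Erfe, the erythroblast hormone that lowers hepcidin, was at least 5.61-fold higher in CD45-negative cells. Hfe (1.89) and Trf, transferrin (1.46), were the 2 genes higher in LSK cells.

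Factors of nuclear condensation and enucleation lay on both sides of 0, with a median of -0.25 over 18 measured genes that became 1.26 on the spike-in scale; 4 were at least 2-fold higher in LSK cells and 8 lower. The lower ones were led by genes of maturing red cells: Ube2l6 had levels of -0.81 and 4.68 (-5.49), Ranbp10 had 2.72 and 7.29 (-4.58) and Xpo7, a nuclear exportin, had 2.88 and 7.38 (-4.5). Ube2h (-3.54) and Fbxo9 (-3.53) came next. The 4 higher ones included the formin Diap2 (2.01), Pak2 (1.45) and Cdc42 (1.42). The remaining Cdc42 probes went the other way, at -0.15 and -0.56.

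Antioxidant enzymes were on balance lower in LSK cells, by a median of -1.43 over 20 measured genes that became 0.07 on the spike-in scale; 10 were at least 2-fold lower and 1, Prdx6, was higher (1.01). Gclm, the modifier subunit of glutathione synthesis, had levels of -1.87 and 3.02 (-4.89), Nqo1 had -2.95 and 1.47 (-4.43) and Txnrd2, the mitochondrial thioredoxin reductase, had -1.48 and 2.73 (-4.22). Glrx5, which also serves iron-sulfur cluster assembly, differed by -2.97, and Cat, catalase, by -2.85. Autophagy and mitochondrial clearance genes had a median of -1.19 over 18 measured genes (0.32 on the spike-in scale), with 10 at least 2-fold lower and none higher. Optn differed by -3.87, Bnip3l, the receptor that clears mitochondria from red cells, had levels of 1.76 and 5.09 (-3.33), and Gabarapl2 (-2.91) and Ulk1 (-2.76) followed.

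Megakaryocyte and platelet genes had no common direction: of 14 measured, 5 were at least 2-fold higher in LSK cells and 4 lower. Their median of 0.30 became -0.12 after normexp correction and -0.09 with bounds included. Nrgn (2.15), Itga2b, the integrin CD41 (1.5), Pf4 (1.29) and Itgb3 (1.29) were among the genes higher in LSK cells. Ppbp, a platelet chemokine, had levels of -3.20 and 1.91 (-5.12), Gp9 of the von Willebrand receptor had 0.57 and 3.51 (-2.93), and Clec1b (-1.73) and Vwf (-1.05) were lower as well. Thbs1, Tubb1 and Gp6 were detected in CD45-negative cells only, at least 4.29-fold, 2.90-fold and 2.79-fold higher.

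Niche and reticular genes were split between detection and level. Of 30 genes on the array, 13 were measured, with 3 at least 2-fold higher in LSK cells and 5 lower. A further 9 were detected in CD45-negative cells only, 2 in LSK cells only and 6 on neither array. The median of the measured genes was -0.35, and 1.16 on the spike-in scale. Cxcl12 differed most (-6.71), and its second probe was not well above background in LSK cells. Cxcl14 was at least 27.1-fold, Esm1 at least 24.7-fold, Adipoq at least 16.3-fold and Ebf3, a factor of reticular cells, at least 12.2-fold higher in CD45-negative cells. The higher ones in LSK cells were Pdgfrb (2.41), Csf1 (1.64) and Tgfb1 (1.18), and Angpt1 was detected there only.

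Bone matrix genes were among the clearest stromal signals. Of 23 osteoblast genes, 13 were measured, 6 were at least 2-fold lower in LSK cells and 2 higher, with a median of -0.93 (0.57 on the spike-in scale). Col1a1 had levels of -2.47 and 5.32, Bglap had -3.03 and 4.47, Col1a2 had -1.54 and 5.69 and Bglap3, an osteocalcin copy, had -3.08 and 3.68. Runx2, the master factor of bone formation, was instead higher in LSK cells, with levels of 2.39 and -0.95 (3.34), and so was Omd (1.87). Sp7, Dlx5, Dmp1, Phex, Ifitm5 and Tnfsf11 were not well above background on either array.

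Of 40 extracellular matrix genes, 14 were measured, 7 were at least 2-fold lower in LSK cells and none was higher, with a median of -0.96 (0.54 on the spike-in scale). A further 10 were detected in CD45-negative cells only and 3 in LSK cells only. Besides the type I collagen chains, Sparc, osteonectin, had levels of -1.55 and 2.46 (-4.02), Col5a1 had -1.22 and 2.57 (-3.79) and Dcn, decorin, had -1.52 and 1.78 (-3.30). A dimmer Col5a1 probe differed by only -0.62. Col8a1 was at least 11.7-fold higher. Lama5, a laminin chain of vessel walls, was detected in LSK cells only (at least 5.0-fold), as were Col4a2 (1.80) and Fn1 (1.16).

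Fibroblast genes were detected in CD45-negative cells only for 7 of 20, among them Mgp (at least 18.0-fold), Cygb (8.82), Lum (7.03), Col6a2 (6.06) and Fap (5.47). The 7 measured ones had a median of 0.47, which became -1.13 with bounds included; Thy1 (3.65) and Ly6c1 (1.85), which blood cells share, were higher in LSK cells and Dcn was lower. Of 18 chondrocyte genes, 11 were not well above background on either array and 4 were measured, with a median of -0.73 (0.78 on the spike-in scale). The 1 measured gene past 2-fold was Sox6, shared with red cells. Col2a1, the main cartilage collagen, differed by -0.97 at its brightest probe, and its second probe was above background in CD45-negative cells only, with levels of -4.98 and -1.72. A further 2 chondrocyte genes were detected in CD45-negative cells only, among them Col11a1 with levels of -5.84 and -0.42, and 1 in LSK cells only.

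Of 18 adipocyte genes, 11 were measured, 6 were at least 2-fold lower in LSK cells and 2 higher, with a median of -1.81. Cd36, Slc2a4, the insulin-regulated glucose carrier GLUT4, with levels of -0.44 and 5.37 (-5.81), and Acsl1 (-3.25) are expressed beyond fat cells. The genes more particular to fat were uneven. Adipoq, adiponectin, was at least 16.3-fold higher in CD45-negative cells, and Fabp4 (-1.81) and Lpl (-1.83) were higher there too. Plin4 (0.15), Pparg (0.47) and Cfd (-0.52) stayed within 2-fold. Cidec and Lep were detected in LSK cells only, with no fold given, and Plin1 and Retn were not well above background on either array. Apoe (1.94) and Lipe (1.37) were higher in LSK cells.

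Endothelial genes did not favour the CD45-negative sort. Of 28 genes, 19 were measured, 7 were at least 2-fold higher in LSK cells and 1, Vwf, was lower, with a median of 0.95 that was 0.13 after normexp correction. Besides Cd34 and Pecam1, Egfl7 had levels of 4.60 and 1.84 (2.76) and Emcn, endomucin, had 0.28 and -2.41 (2.69), both also genes of stem cells. Tie1 was detected in LSK cells only (at least 5.90-fold). Esm1 (at least 24.7-fold), Mmrn2 (7.95) and Cldn5, a junction protein of vessels (3.36), were detected in CD45-negative cells only.

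Smooth muscle and pericyte genes had a median of 0.08 over 10 measured genes, -0.23 after normexp correction; Smtn (2.59), Pdgfrb (2.41), Cnn2 (2.06) and Tpm2 (1.81) were at least 2-fold higher in LSK cells and Cnn1 was lower (-1.06, and 0.45 on the spike-in scale). Skeletal muscle genes were lower in LSK cells for 12 of 14 measured genes and higher for none, with a median of -1.43 that became 0.08 on the spike-in scale. Mylpf, a fast muscle light chain, had levels of -1.66 and 1.80 (-3.46), Acta1 had -3.28 and -0.82 (-2.45) and Mb, myoglobin, was at least 9.62-fold higher in CD45-negative cells. Muscle genes were present on both arrays, Myh4 with levels of 5.09 and 6.55. Of 15 Schwann cell and neuron genes, 7 were measured with a median of -0.05 (1.46 on the spike-in scale), and Gfap was at least 40.5-fold higher in CD45-negative cells.

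Cell division genes were higher in CD45-negative cells. All 30 mitosis and G2/M genes were measured, 29 were at least 2-fold lower in LSK cells and none was higher, with a median of -1.81 that stayed below 0 on the spike-in scale (-0.30). Mki67, the proliferation antigen Ki-67, had levels of 6.02 and 8.96 (-2.93), and its second probe differed by -2.58. Hmmr had levels of 1.55 and 4.44 (-2.89), Nusap1 had 2.24 and 5.13 (-2.88) and Ccnb2, a mitotic cyclin, had 4.67 and 7.48 (-2.82). Cdk1, the mitotic kinase, had 0.51 and 3.22 (-2.71), and Cenpf had 3.11 and 5.81 (-2.70). A dimmer Cdk1 probe differed by only -0.12. Top2a alone was within 2-fold (-0.89).

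All 30 DNA replication and G1/S genes were measured as well, with 12 at least 2-fold lower in LSK cells and 1 higher, and a median of -0.83 (0.68 on the spike-in scale). Orc1 of the origin recognition complex had levels of -1.65 and 1.3 (-2.95), Ccne1, cyclin E1, had 3.65 and 6.46 (-2.81) and Cdc6, the helicase loader, had 0.32 and 2.80 (-2.48). Ccne2 differed by -2.57 and Rrm2, a subunit of ribonucleotide reductase, by -2.24. The replicative helicase subunits Mcm2 to Mcm7 all lay within 2-fold, between -0.82 and -0.38. Ung, which removes uracil from DNA, was the higher gene (1.33).

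The inhibitors of cyclin-dependent kinases divided into opposing groups. Cdkn1a, p21, had levels of 1.75 and 0.17 (1.58) and Cdkn1c, p57, which holds stem cells in quiescence, had -0.94 and -2.41 (1.47), both higher in LSK cells. Cdkn1b, p27, had levels of 2.54 and 4.50 (-1.96), Cdkn2c had 2.28 and 4.69 (-2.42), Cdkn2d had 3.25 and 5.75 (-2.49) and Cdkn3, a phosphatase, had 2.22 and 5.68 (-3.46). The median over these 6 was -2.19. Cdkn2a and Cdkn2b were not well above background on either array.

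Energy genes differed by pathway. Of 21 measured genes of glycolysis and glucose transport, 13 were at least 2-fold higher in LSK cells and 3 lower, with a median of 1.43. Hk2, hexokinase 2, had levels of 1.85 and -0.98 (2.83), Ldhb had 2.71 and 0.07 (2.64), Pgam1 had 5.94 and 3.66 (2.28) and Gpi1 had 7.93 and 5.76 (2.18). The 3 lower genes were Bpgm, Slc2a4 and Hk1. Bpgm, which makes 2,3-bisphosphoglycerate, had levels of -0.20 and 6.10 (-6.30), Slc2a4 differed by -5.81 and Hk1, a hexokinase that red cells use, by -1.12. Pklr, the pyruvate kinase of red cells, did not share this direction (0.02). Slc2a1, the glucose carrier GLUT1, was higher in LSK cells (1.90). Oxidative phosphorylation genes differed little: 21 of 25 lay within 2-fold, with a median of -0.45 (1.06 on the spike-in scale). Ndufb5 was higher (1.06), and Cyc1 (-1.24), Ndufv1 (-1.14) and Atp5b (-1.04) were lower, each of these 3 above 0 on the spike-in scale.

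Ribosome biogenesis and ribosomal protein genes differed in pattern. Of 20 measured biogenesis genes, 12 were at least 2-fold higher in LSK cells and 1 lower, with a median of 1.12. Myc, which drives the programme, had levels of 4.13 and 2.19 (1.94), Polr1a, the large subunit of RNA polymerase I, had 3.51 and 1.72 (1.79), Nop56 had 5.58 and 3.90 (1.69) and Fbl, fibrillarin, had 7.29 and 5.69 (1.60). Polr1b followed at 1.57. Odc1, the polyamine enzyme, was the lower one, with 5.78 and 8.62 (-2.84). Of 29 cytosolic ribosomal protein genes, 13 were saturated in LSK cells, 3 of them also in CD45-negative cells, so that their signals bear little on a difference. The other 16 all lay within 2-fold, from -0.42 to 0.58, with a median of 0.03. The median of all 29 was -0.09, which changed sign under several scalings (1.41 on the spike-in scale).

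**Figure D4:**
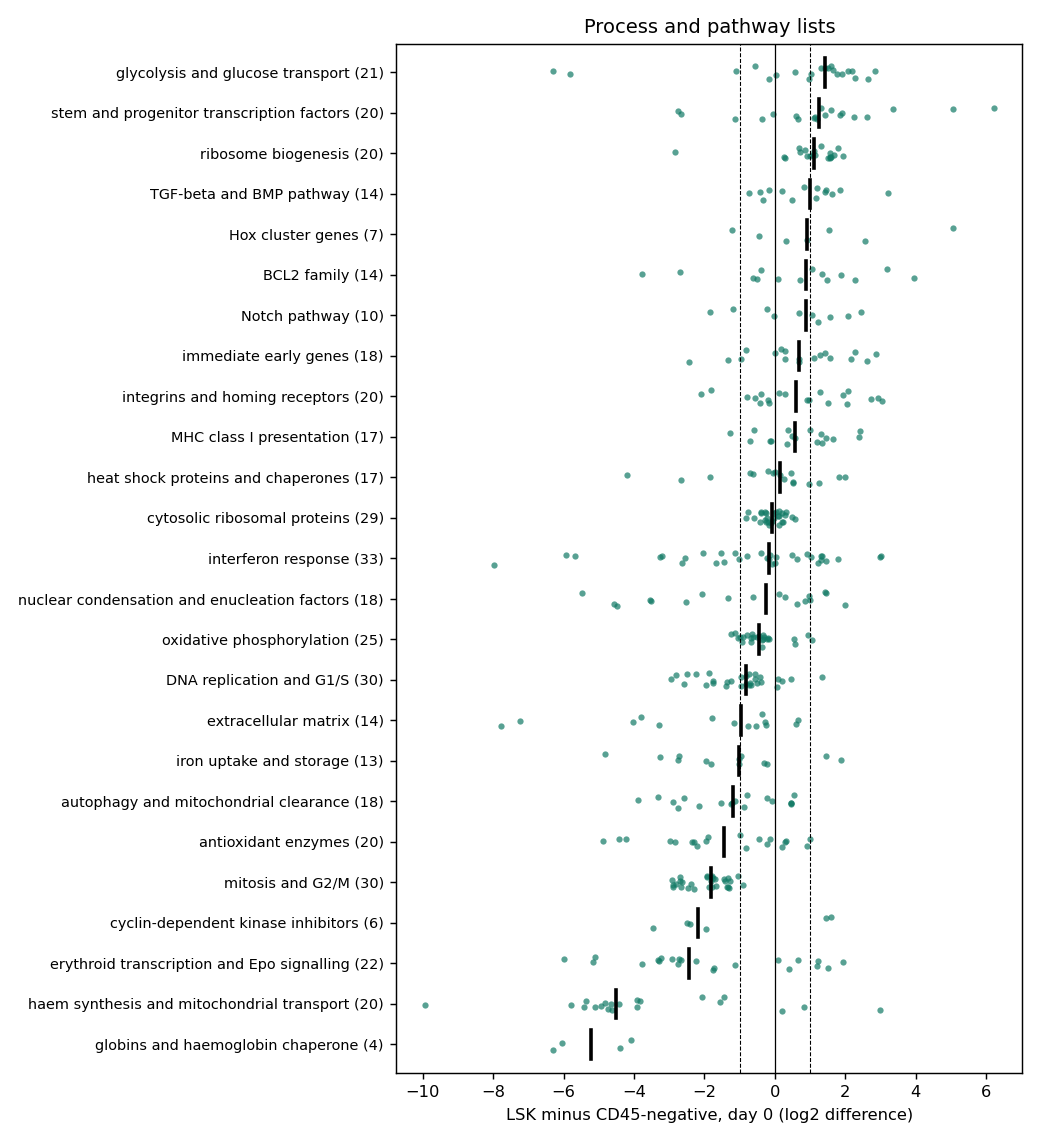
Difference of each measured member of the process and pathway lists, LSK minus CD45-negative at day 0 on the log2 scale; points are genes, thick bars are list medians, the number in brackets is the number of genes and the dashed lines mark 2-fold. Globin and haem synthesis genes lie lowest with medians of -5.23 and -4.52, glycolysis is highest with 1.43, and ribosomal protein genes cluster about 0.

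Interferon-response genes had no common direction, with a median of -0.18 over 33 measured genes (1.33 on the spike-in scale), 9 at least 2-fold higher in LSK cells and 13 lower. The spread within the list was wide. Rsad2 differed by -7.98, Isg20, an exonuclease, had levels of 0.34 and 6.27 (-5.93), and Isg15, the ubiquitin-like modifier, had 0.23 and 5.90 (-5.68). Oas3 followed at -3.27 and Ifit1 at -3.20. Bst2, tetherin, (3.01) and Ifitm1, with levels of 4.03 and 1.04 (2.99), were higher in LSK cells. Stat2, which carries the signal, stayed within 2-fold (-0.38).

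MHC class I presentation genes had a median of 0.57 over 17 measured genes, with 7 at least 2-fold higher in LSK cells. Tap2, a peptide transporter chain, had levels of 1.63 and -0.79 (2.42) and Nlrc5, the class I transactivator, had 1.64 and -0.75 (2.38). Psmb10 (1.64), Psmb9 (1.45), Psmb8 (1.34) and Tap1 (1.31) followed. B2m, the light chain, was the lower gene (-1.26) and turned positive on the spike-in scale.

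Immediate early genes had a median of 0.68 over 18 measured genes, 8 at least 2-fold higher in LSK cells and 2 lower. Nr4a1 had levels of 5.76 and 2.89 (2.88), Ier3 had 2.03 and -0.60 (2.63), Nr4a2 differed by 2.27 and Fosb by 2.17. Btg2, an antiproliferative gene, had 3.70 and 6.15 (-2.45) and Atf3 differed by -1.34. Such genes also respond to handling of cells, and the time from marrow to lysis is not stated. Heat shock and chaperone genes were balanced, with 3 higher and 3 lower among 17 and a median of 0.13 (0.00 with the housekeeping scaling). Hsp90ab1 (2.0), Hspa9 (1.82) and Hspa4 (1.25) were higher in LSK cells, though other Hspa4 probes gave 0.71 and -0.33. Dnajb4 had levels of -0.12 and 4.09 (-4.21), Hspa1a differed by -2.65 and Dnajb1 by -1.85.

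Among signalling lists, Notch genes had a median of 0.87 over 10 measured genes, with 5 at least 2-fold higher in LSK cells and 2 lower. Notch1 had levels of 1.68 and -0.78 (2.46), Mfng, a modifier of Notch receptors, had 2.74 and 0.66 (2.08), Lfng differed by 1.57, Rbpj, the nuclear effector, by 1.23 and Notch2 by 1.06. Heyl (-1.84) and Dtx1 (-1.20, but positive on the spike-in scale) were lower, and the ligands Jag1, Dll1, Dll3 and Dll4 were not well above background on either array. TGF-beta and BMP genes had a median of 1.0 over 14 measured genes, with 7 higher and none lower. Smad1, which relays BMP signals, had levels of 3.50 and 0.28 (3.21), Nog, a BMP antagonist, differed by 1.86 and Smad5 by 1.62. Other Smad5 probes gave 1.42 and -0.53. The ligand gene Inhba (at least 3.21-fold) and the antagonist Grem1 (3.52) were detected in CD45-negative cells only.

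Integrins and homing receptors had a median of 0.60 over 20 measured genes, 8 at least 2-fold higher in LSK cells and 2 lower. Itgb5 had levels of 1.58 and -1.47 (3.04), Itgb7 had 4.58 and 1.65 (2.93) and Itga6, a laminin receptor chain, had 0.25 and -2.48 (2.73). Itgav (at least 4.12-fold) and Itga5 (3.92), receptor chains for vitronectin and fibronectin, were detected in LSK cells only. Cd47 (-2.10) and Itga4, a chain of the VCAM-1 receptor, with levels of 4.25 and 6.07 (-1.82), were lower. Cxcr4, the CXCL12 receptor, had levels of 3.03 and 3.61 at its brightest probe, which is within 2-fold. A dimmer Cxcr4 probe had levels of -0.42 and 1.57 and differed by -1.99, so the 2 probes disagree on the size. Cxcl12 itself differed by -6.71.

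Members of the BCL2 family, which set the threshold for cell death, differed in both directions, more of them higher in LSK cells. Bcl2 had levels of 2.95 and -0.99 (3.94) and Bcl2l2, BCL-W, had -0.17 and -2.05 (1.88), both protective and higher in LSK cells. Bcl2l1, also protective, had the opposite direction (-3.76), and Mcl1 had near equal levels of 5.12 and 5.03. Among death-promoting members, Bok had levels of 2.73 and -0.46 (3.19), Pmaip1, NOXA, had 1.86 and -0.42 (2.28), and Bmf had -0.27 and 2.44 (-2.71). Over 14 measured genes 7 were higher, 2 were lower and the median was 0.89. Of all measured genes, 21.8% were higher and 17.7% lower.

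Probes of the same gene mostly pointed the same way. Of 4408 genes with at least 2 probes measured on both arrays, 1665 differed at least 2-fold at the brightest probe. All probes had the same sign for 1552 of these (93.2%) and were all at least 2-fold the same way for 1095 (65.8%), and 21 genes had a probe at least 2-fold the other way. The median range between probes of a gene was 0.46.

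The same contrast at day 10 uses 2 other arrays, so its values are set beside those of day 0. Of 15848 genes measured at day 10, 1753 were at least 2-fold higher in LSK cells and 2003 lower (23.7%). Over the 14189 genes measured on all 4 arrays, 3152 were at least 2-fold higher in LSK cells and 2441 lower at day 0. At day 10 the counts over the same 14189 genes were 1456 and 1719. Of these genes, 731 were higher in LSK cells at both days, which is 23.2% of those higher at day 0 and 50.2% of those higher at day 10. Another 654 were lower at both days, 26.8% and 38.0% of the respective lists. Opposite 2-fold differences were found for 167 genes that were higher in LSK cells at day 0 and lower at day 10, and for 131 the other way round. Across genes the differences had a Pearson correlation of 0.37, as a description over genes that are not independent.

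List medians over genes measured on all 4 arrays were closer to 0 at day 10 for the red cell genes, on the 75th percentile scale. Red cell membrane genes had a median of -5.44 at day 0 and -1.58 at day 10, and haem synthesis genes -4.52 and -1.01. Mitosis genes had -1.81 and -0.32, but their day 0 median is -0.30 on the spike-in scale. At day 10 the mean log2 spike-in signal was 10.42 in LSK and 9.42 in CD45-negative cells, against 75th percentiles of 7.90 and 8.30. Spike-in scaling would thus lower the day 10 differences, whereas it raises those of day 0. No day 10 median was computed on that scale. Cxcl12 had a level of 1.25 in CD45-negative cells at day 10 against 4.40 at day 0. Mast cell and basophil genes kept their side, with medians of 3.52 and 2.71, both of which are the values of Kit, a gene of the LSK gate. Cd34 kept its side as well with differences of 4.74 and 5.28, Gata2 with 6.22 and 4.26 and Hoxa9 with 5.05 and 4.63. The pan-leukocyte median was 1.26 at day 0 and -0.44 at day 10.

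**Figure D5:**
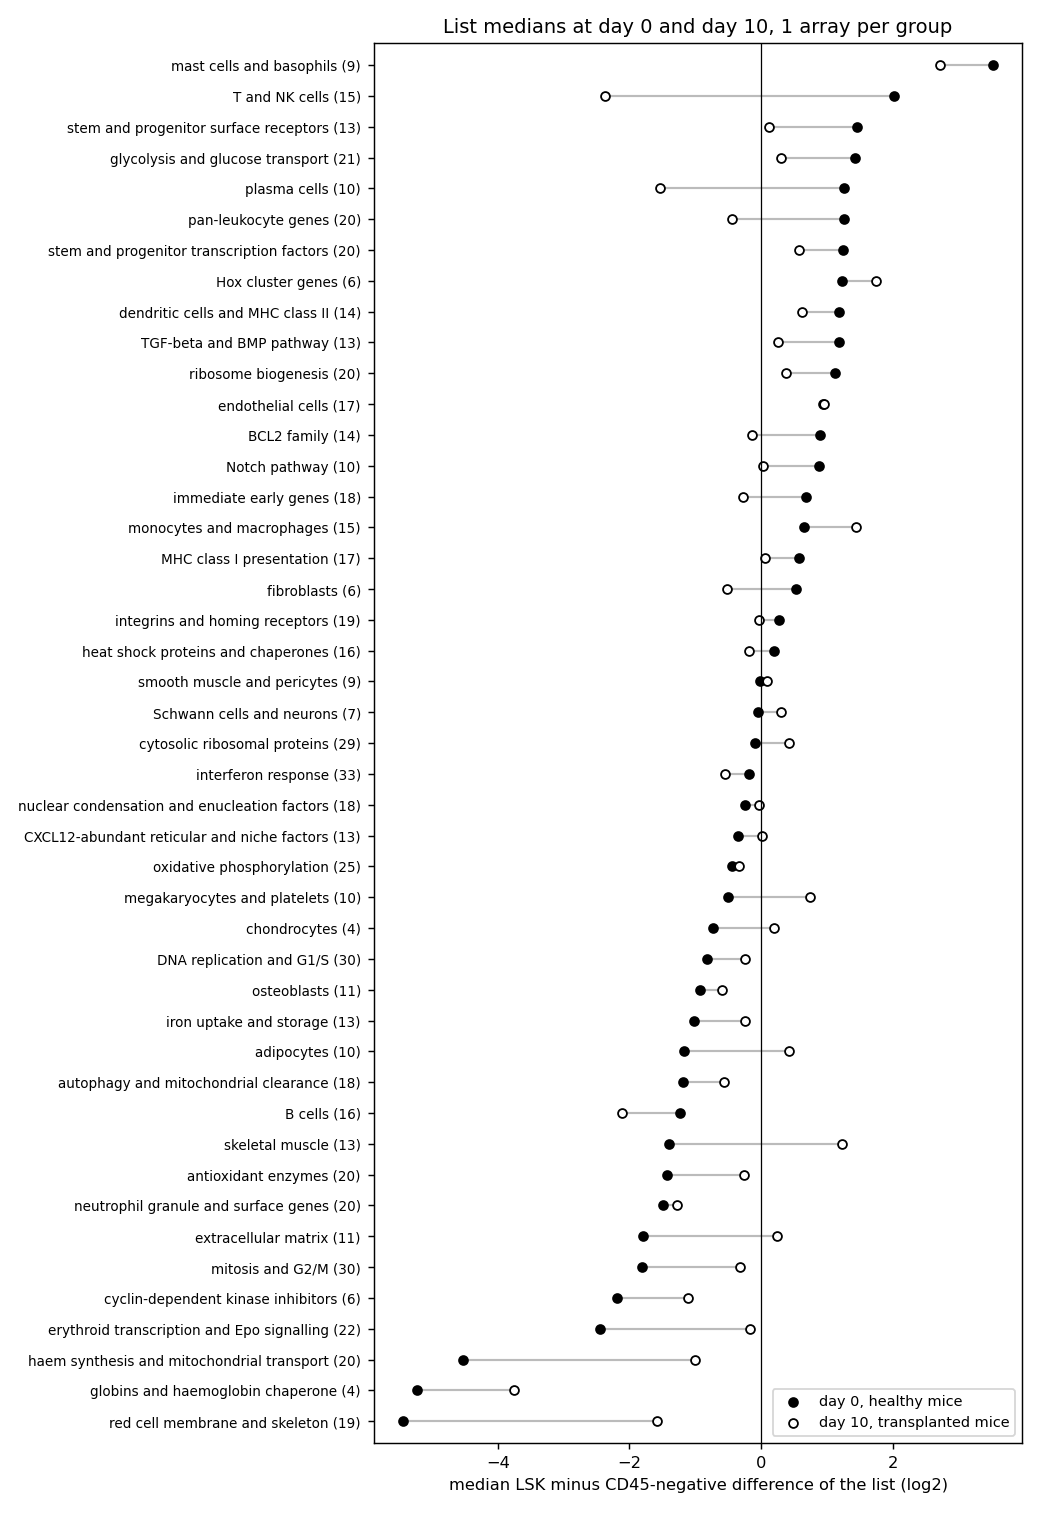
Median LSK minus CD45-negative difference of each list (log2) at day 0 (filled) and day 10 (open), over the genes measured on all 4 arrays, whose number is in brackets; each group is 1 array and no median has an error bar. T and NK cell, plasma cell and skeletal muscle genes lie on opposite sides of 0 by at least 1 at the 2 days.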

How the data were processed

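Cells sorted from mouse bone marrow were profiled on Agilent mouse 8x60k 1-colour arrays, 1 per group, all on 1 slide with 1 scan time. Per the file headers, the authors read the scans in Feature Extraction (Agilent, version 10.5.1.1). Their deposited spot tables give intensity as the mean signal, the background around the spot and Agilent's processed signal. They also hold detection, saturation, outlier and control flags (unit: other, deposited per the file headers). The deposited series table holds the authors' log2 values, which equal the log2 processed signal minus 1 constant per array for all but a few probes. The design of the array is on mm9, and no coordinates were taken from it.

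Control and outlier spots were removed, processed signals were log2-transformed and averaged per probe, and the 75th percentile of the array was subtracted. RefSeq gave current symbols for 28128 of 40628 gene probes (69.2%) by accession; 20679 noncoding probes were kept apart. The brightest probe over the 4 arrays stands for a gene. The analysis ran in Python 3.11.15 and in R 4.3.3 with limma 3.58.1 for normexp (offset 50), quantile and cyclic loess. The counting was tested on simulated data.

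The 45 lists hold 952 genes, 939 on the array. Named genes are the 15 largest differences each way, among genes with no saturated probe, that hold under 4 alternatives, the 5 largest bounds each way, up to 6 members of each list and the markers of the sorts. Clone, predicted and antibody V-segment names were left out, and a few genes that this rule names are not reported here. The members and lists were chosen with earlier results of these data known. Alternatives were other scalings, background correction, probe rules, detection filters, saturated genes left out and other fold thresholds.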

Additional observations from a re-analysis of the deposited data

Results flagged for a closer look

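A few results lay at least 2-fold one way at day 0 and at least 2-fold the other way at day 10, each from 1 array per group. These differences between the days were not tested, since no group has a replicate. T and NK cell genes had a median LSK minus CD45-negative difference of 2.02 at day 0 and -2.36 at day 10. Plasma cell genes had 1.26 and -1.54. Skeletal muscle genes had -1.41 and 1.23 over the genes measured on all 4 arrays. Spike-in scaling turns the day 0 muscle median positive and would lower the day 10 one, so this reversal depends on the scaling. Jchain differed by 6.27 at day 0 and -4.66 at day 10. Ptprc, the gene of CD45, differed by 1.08 at day 0 and -1.33 at day 10.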

How the results depend on the processing

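The count of genes higher in LSK cells (3172) and that of genes lower (2571) stayed within 1.5 times under normexp, quantile, cyclic loess, the median shift, a 75th percentile over commonly detected probes, the housekeeping scaling, the deposited table, both other probe rules, detection on all 4 arrays and the omission of saturated genes. The spike-in scaling gave 10287 higher and 685 lower. Without a detection filter there were 5277 higher and 5685 lower, and with detection on at least 1 array 4858 were higher. A 1.5-fold threshold gave 4811 and 3940, and a 4-fold one 887 and 1049. Only the spike-in scaling turned called values: the medians of iron genes to 0.48, neutrophil genes to 0.013, B cell genes to 0.32, skeletal muscle genes to 0.076, antioxidant enzymes to 0.073 and autophagy genes to 0.32, and the differences of Hoxc4 to 0.29, C1qb to 0.019, Cnn1 to 0.45, Tnnc2 to 0.043, Cyc1 to 0.27, Ndufv1 to 0.37, Atp5b to 0.47, Dtx1 to 0.31, Apol9b to 0.48, Atf3 to 0.16, B2m to 0.25, Bank1 to 0.15, Hk1 to 0.39, Lmo2 to 0.36, Myh4 to 0.052 and Vwf to 0.45. Among 45 list medians and 314 named genes under 14 alternatives, the other values that were at least 2-fold from 0 kept their sign. No paired analysis was possible because each group has 1 array. The number of arrays limits the precision: no library can be left out, and the spot SD does not cover differences between mice or sorts.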

Other observations

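Apolipoprotein L genes, singled out after Apol8, Apol10b and Apol11b appeared among the largest differences, were divided by copy. Besides those 3, Apol10a (at least 178-fold), Apol10c (40.4) and Apol6 (3.01) were detected in CD45-negative cells only. Apol7b and Apol7e were measured on both arrays and differed by 0.94 and 1.14, higher in LSK cells, Apol7a and Apol7c were detected in LSK cells only, and Apol9a and Apol9b differed by -0.78 and -1.03. These copies are similar in sequence, and the probes may not tell close ones apart.

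Genes were also grouped by the letters that open their symbol, with at least 8 measured genes a group, which gave 173 groups. The group median was at least 1 in 6 of them and at most -1 in 5, as a description chosen after the lists had been read. The higher ones in LSK cells included the guanine nucleotide exchange factors Dock (1.29 over 10 genes) and Arhgef (1.04 over 14), the annexins Anxa (1.28 over 9, with 7 at least 2-fold higher) and the tetraspanins Tspan (1.26 over 13). The tumour necrosis factor receptors Tnfrsf had 1.41 over 11 genes, and the nucleolar Nop genes 1.45 over 8. The lower ones were the myosin heavy chains Myh (-1.42 over 8), the chaperones Dnajb (-1.42 over 8), the kinesins Kif (-1.31 over 24, with 13 at least 2-fold lower and 4 higher), Cdkn (-1.22 over 8) and the phosphatases Ppm (-1.10 over 9); all 5 of these medians turn positive with the spike-in scaling, which adds 1.51.

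Noncoding transcripts, which no comparison above uses, showed a different balance. Of 20679 such probes, 7240 were above background on both day 0 arrays. Of these, 29.7% differed at least 2-fold, against 39.5% of the measured genes. They comprised 677 that were higher in LSK cells and 1472 that were lower, against 3172 and 2571 of the 14552 measured genes. The median was -0.29 and turns positive with the spike-in scaling, which adds 1.51. Another 2329 were above background in LSK cells only and 771 in CD45-negative cells only.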
